A study of Homo sapiens with 8 samples.

Results

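The genes described are FOS, JUNB, IER3 and KLF4, 4 immediate early genes among the 14884 genes measured on 8 arrays of PC-3 clones. They were listed by symbol, and the brightest probe set of each, by its mean across arrays, gave its level. PC-3 is an androgen-independent human prostate cancer cell line. The RWDD4 group comprised 4 clonal isolates (clones 5, 6, 17 and 24) that carried a p-Lenti vector with the RWDD4 gene, and the control group 4 clonal isolates (clones 2, 3, 4 and 5) that carried the empty p-Lenti vector; the number 5 appears in both groups and names a different clone in each. All 8 had been selected with the drug that the labels spell blastocydin. Each array held the RNA of 1 clone, so the spread within a group is one between clones. RWDD4 itself was 7.67-fold higher in the RWDD4 clones, at 10.30 ± 0.29 against 7.36 ± 0.58 (log2 level, SD, n = 4 each; adjusted p 5.98e-05 by limma). The promoter of the vector is not given in the sources used here.

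Immediate early genes are transcribed within minutes of a growth factor, cytokine or stress signal, from factors such as SRF, the ETS factors and CREB that are already bound or present in the cell. Proteins of the FOS and JUN families pair through a leucine zipper to form AP-1, which drives a second wave of genes. Other immediate early products act as feedback, damping the kinase or NF-kappa-B signal that induced them. In epithelial cancers, prostate cancer among them, these genes respond to growth factor and inflammatory signals.

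All 4 genes fell in the RWDD4 clones, and in all 4 every RWDD4 clone lay below every control clone. JUNB changed most, being 2.34-fold lower, followed by IER3 at 1.56-fold, KLF4 at 1.3-fold and FOS at 1.27-fold lower. A gene is said to have fallen, risen or changed when its limma p, adjusted by the Benjamini-Hochberg method over the 14884 genes, was under 0.05. By that rule 46.7% of all genes changed, 21.6% fell and 25.1% rose, and in 21.1% of all genes every RWDD4 clone lay below every control clone. A fall of any 1 gene was thus a common outcome on these arrays. In bulk RNA fewer cells with a transcript and less of it per cell cannot be told apart. By the size of the fall JUNB ranked 29 among all genes, IER3 404, KLF4 1998 and FOS 2410.

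JUNB (Entrez gene 3726) encodes an AP-1 subunit that can replace JUN in the dimer and often limits its activity. Its log2 level was 9.66, 10.03, 9.15 and 9.27 in RWDD4 clones 17, 24, 5 and 6. In control clones 2, 3, 4 and 5 it was 10.88, 11.05, 10.73 and 10.35. Clone 24 was the highest of the RWDD4 clones and clone 5 the lowest of the controls, and a gap of 0.32 remained between them. The group means were 9.53 ± 0.40 and 10.75 ± 0.30 (SD, n = 4 each), a difference of -1.23 (SE 0.20, 95% interval -1.67 to -0.78, adjusted p 0.00079 by limma). JUNB had the widest spread of the 4 genes in both groups, with a range of 0.89 over the RWDD4 clones and 0.70 over the controls.

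FOS (Entrez gene 2353) encodes the classic AP-1 partner of the JUN proteins, which binds DNA only as such a dimer. The level of FOS was 5.96, 5.76, 5.62 and 5.83 in RWDD4 clones 17, 24, 5 and 6, and 6.18, 6.20, 6.12 and 6.07 in control clones 2, 3, 4 and 5. The groups were separated by 0.11, the narrowest gap of the 4 genes, with RWDD4 clone 17 nearest to the controls. Means of 5.79 ± 0.14 and 6.14 ± 0.06 (SD, n = 4 each) gave a difference of -0.35 (SE 0.09, 95% interval -0.56 to -0.14), with an adjusted p of 0.0119 by limma. The controls covered a range of 0.13 and the RWDD4 clones one of 0.33.

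IER3 (Entrez gene 8870) encodes a short-lived stress protein that prolongs ERK signalling, restrains NF-kappa-B and affects survival. RWDD4 clones 17, 24, 5 and 6 lay at 11.06, 11.22, 10.79 and 10.78, and control clones 2, 3, 4 and 5 at 11.68, 11.57, 11.53 and 11.64. As for JUNB, clone 24 was the highest RWDD4 clone and clones 5 and 6 were the lowest 2. IER3 averaged 10.96 ± 0.21 in the RWDD4 clones and 11.60 ± 0.06 in the controls (SD, n = 4 each). The difference was -0.64 (SE 0.11, 95% interval -0.89 to -0.39), with an adjusted p of 0.00115 by limma.

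KLF4 (Entrez gene 9314) encodes a zinc finger factor that promotes epithelial differentiation and growth arrest and is one of the factors used to reprogram cells to pluripotency. Its level was 7.36, 7.12, 7.30 and 7.28 in RWDD4 clones 17, 24, 5 and 6, against 7.71, 7.65, 7.60 and 7.63 in control clones 2, 3, 4 and 5. Here clone 24, the highest RWDD4 clone for JUNB and IER3, was the lowest. With means of 7.27 ± 0.10 and 7.65 ± 0.05 (SD, n = 4 each), KLF4 differed by -0.38 (SE 0.09, 95% interval -0.57 to -0.19; adjusted p 0.00483 by limma).

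For each of the 4 genes alone, all 70 ways to label 4 of the 8 clones as RWDD4 were compared. This two-sided exact permutation test gave p = 0.0286, the smallest that 4 against 4 clones allow. Groups without overlap always give this value, and in 21.1% of all genes every RWDD4 clone lay below every control clone. The test thus adds nothing to the lack of overlap given above. The SD of each gene was larger among the RWDD4 clones than among the controls. Within an array, the gap between FOS and JUNB also parted the groups: FOS minus JUNB lay between -4.27 and -3.44 in the RWDD4 clones and between -4.85 and -4.28 in the controls. The measured fall was thus larger for JUNB than for FOS, though the ranges nearly met. FOS had the lowest values of the 4 genes, and the median of all probe sets was 4.92. RMA can compress changes, so whether the transcripts themselves changed by unlike amounts was not tested. For the other 5 pairs the ranges of the gap overlapped between groups.

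**Figure D1:**
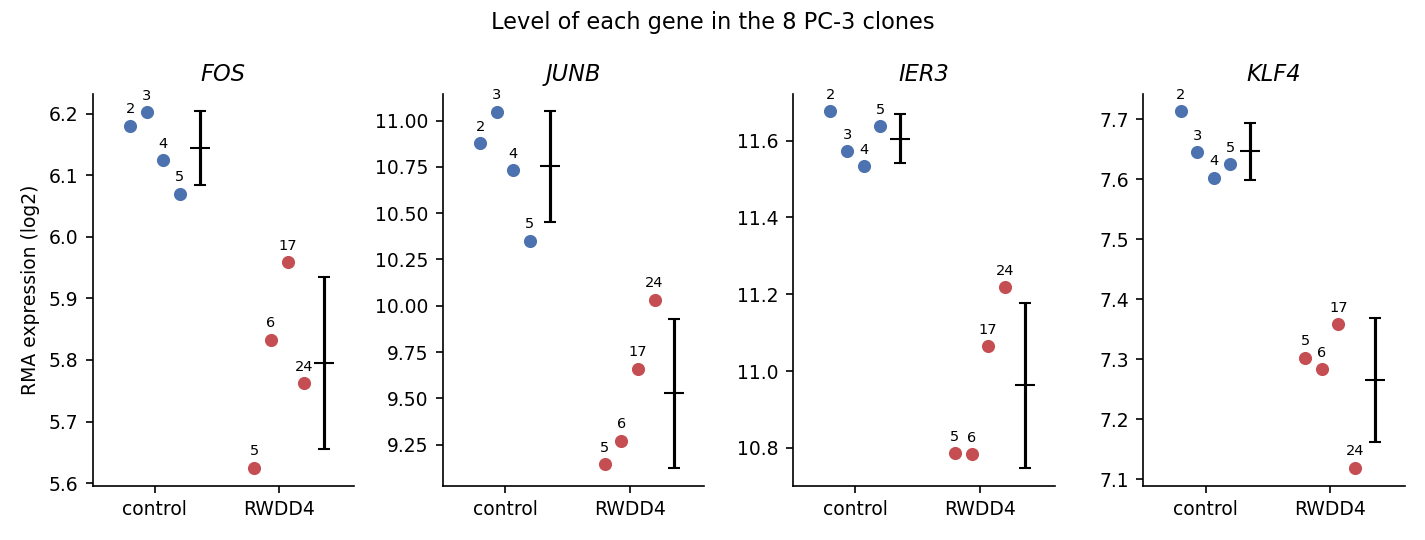
RMA expression on the log2 scale (each panel has its own axis) of FOS, JUNB, IER3 and KLF4 in the 4 control clones (blue) and the 4 RWDD4 clones (red), each point labelled with its clone number; bars give the mean and SD of each group. In every panel all RWDD4 clones lie below all control clones, with the narrowest gap for FOS (0.11) and the widest for JUNB (0.32).

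JUNB and KLF4 were each read by 1 probe set, FOS by 2 and IER3 by 11. The second probe set of FOS also fell, with a difference of -0.52 (SE 0.11; adjusted p 0.0029 by limma over all probe sets with a gene), from 5.94 ± 0.16 to 5.42 ± 0.12 (SD, n = 4 each), without overlap between the groups. Of the 11 probe sets of IER3, 4 held identical values and another 5 held identical values, so that 4 distinct patterns remained and the 11 are not 11 measurements. In 3 of the patterns the control mean lay between 11.46 and 11.60, and the differences were -0.64, -0.63 and -0.65. The pattern shared by 5 probe sets lay lower, at 7.28 ± 0.21 in the controls and 6.79 ± 0.29 in the RWDD4 clones (SD, n = 4 each). In it the difference of IER3 was -0.49 (SE 0.16; adjusted p 0.0247 by limma), and RWDD4 clone 24 at 7.10 overlapped control clone 5 at 7.08. Both genes thus fell on every probe set that reads them.

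**Figure D2:**
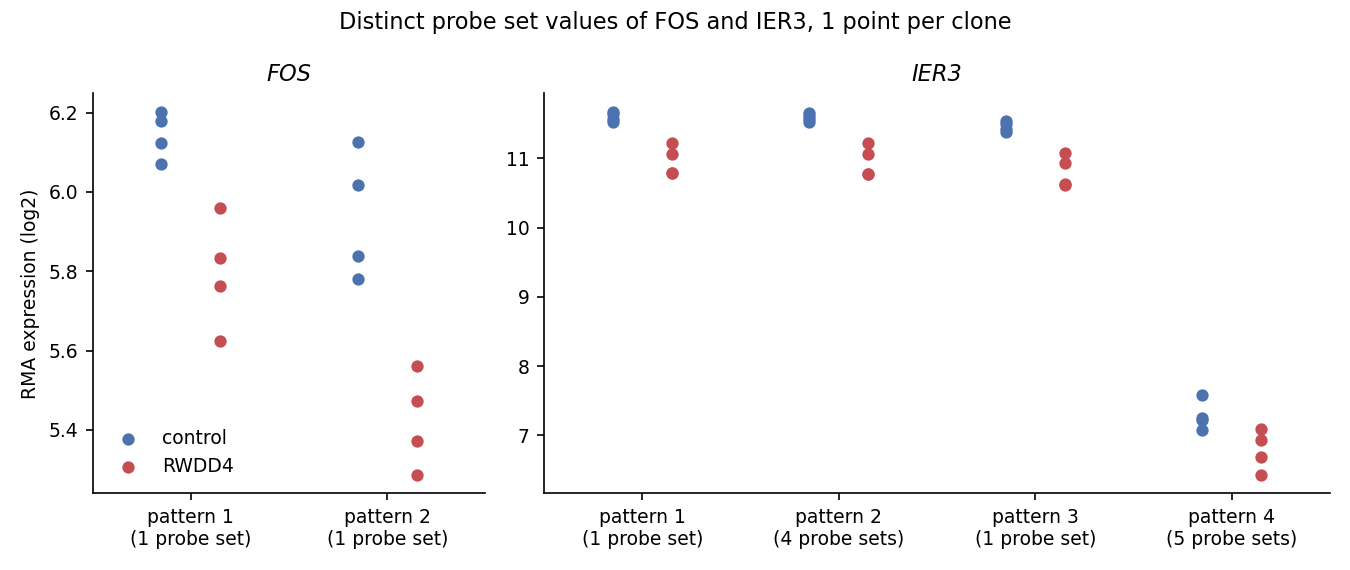
RMA expression (log2) of FOS and IER3 for each distinct pattern of probe set values, with the number of probe sets that share it; each point is 1 clone, control in blue and RWDD4 in red. The RWDD4 clones lie below the controls in both FOS patterns and in 3 IER3 patterns, and the IER3 pattern of 5 probe sets, near 7, overlaps.

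The promoters of FOS, JUNB and KLF4 are shown because these genes fell together. The 250 bases before the RefSeq start (GRCh38.p14) lie at chr14:75278578-75278827 on the + strand for FOS, chr19:12791236-12791485 on the + strand for JUNB and chr9:107489770-107490019 on the - strand for KLF4; no promoter of IER3 is shown. Capitals mark the letters TGACG or their reverse complement CGTCA, the core letters of the cyclic AMP response element (CRE) that CREB and ATF proteins bind, and TATAAA, which resembles a TATA box.
FOS: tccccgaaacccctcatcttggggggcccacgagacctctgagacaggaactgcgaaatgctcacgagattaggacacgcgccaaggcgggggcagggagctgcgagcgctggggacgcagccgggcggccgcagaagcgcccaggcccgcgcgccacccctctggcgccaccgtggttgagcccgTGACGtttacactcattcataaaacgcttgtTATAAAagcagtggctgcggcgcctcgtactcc
JUNB: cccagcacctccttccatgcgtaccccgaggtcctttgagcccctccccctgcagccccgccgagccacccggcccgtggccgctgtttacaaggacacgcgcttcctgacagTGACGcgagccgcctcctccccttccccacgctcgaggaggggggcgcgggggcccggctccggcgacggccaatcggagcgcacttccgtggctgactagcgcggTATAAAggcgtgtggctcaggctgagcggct
KLF4: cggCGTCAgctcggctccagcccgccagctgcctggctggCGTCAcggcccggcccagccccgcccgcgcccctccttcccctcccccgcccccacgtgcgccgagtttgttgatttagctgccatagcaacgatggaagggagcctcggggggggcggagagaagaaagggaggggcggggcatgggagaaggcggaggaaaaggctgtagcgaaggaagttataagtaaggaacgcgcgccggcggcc

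All 3 promoters held the CRE core, searched on both strands: FOS at positions -64 to -60 before the start, JUNB at -137 to -133, and KLF4 at -247 to -243 and -210 to -206. Over all 35116 promoters of the same length 21.2% held it, and among 46 promoters of measured AP-1, immediate early and feedback genes, these 3 included, 43.5% did. FOS and JUNB also held TATAAA, at -33 to -28 and -31 to -26, which 10.7% of all promoters and 26.1% of the 46 held; these letters were added to the search after the sequences had been seen. The GC box GGGCGG (42.6% of all promoters, 65.2% of the 46), bound by SP1 and KLF factors, was found at 1 place in FOS and at 4 in KLF4. The full CRE TGACGTCA (1.65% of all promoters, 10.9% of the 46), whose letters contain the core, was not found in these windows on either strand. Nor were the AP-1 site TGANTCA (6.57% and 0%), the CArG box of SRF (1.16% and 2.17%) and the NF-kappa-B site (5.21% and 6.52%). Sites further than 250 bases before the start were not searched. A match of letters is a description and does not show that a factor binds.

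The AP-1 family is the set of dimer partners of FOS and JUNB. Of its 19 listed subunits and partners, 13 were measured, among them FOS and JUNB, which were chosen with earlier results known. Of the 13, 7 fell (53.8%, against 21.6% of all genes) and 1 rose (7.69%, against 25.1%). The median difference was -0.35, against -0.08 over all genes. JUNB, JUND and FOS lie in the shortest decile of genomic span, where 37.3% of protein-coding genes fell. With the span trend removed 7 of the list fell and 1 rose, but these 7 were not all the same genes. FOS and FOSB no longer passed, while JDP2 and MAF did. JUND, which is usually abundant in resting cells, fell by 0.70 (SD 0.23 and 0.13, n = 4 each; adjusted p 0.00124 by limma), from 8.99 to 8.30. FOSB fell by 0.36 (adjusted p 0.00585), but not with the span trend removed (-0.20, adjusted p 0.0865). The small MAF proteins, which pair with other leucine zipper factors and carry no activation domain, also fell: MAFF, with a difference of -0.59 (adjusted p 0.00326), and MAFG, with one of -0.48 (adjusted p 0.00366). The stress-induced ATF3 fell by 0.54 (adjusted p 0.0400). ATF3 overlapped between the groups. Its adjusted p was 0.0643 after median centring and 0.108 after cyclic loess, and 0.0644 to 0.114 when control clone 3 or 4 or RWDD4 clone 5, 6 or 24 was left out.

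ATF2, a partner of JUN that is switched on by phosphorylation more than by its own transcription, was the 1 member that rose, by 1.17, from 6.22 ± 0.34 to 7.39 ± 0.22 (SD, n = 4 each; adjusted p 0.000362 by limma). ATF2 lay at 7.26 to 7.73 in the RWDD4 clones and at 5.73 to 6.46 in the controls. It lies in decile 9 of genomic span, where 51.1% of protein-coding genes rose, and its rise was 0.92 with the span trend removed. JUN itself differed by -0.02, with a 95% interval of -0.31 to 0.26, and the groups overlapped. FOSL1 and FOSL2, the FOS relatives with slower kinetics, differed by -0.09 (95% interval -0.29 to 0.11) and -0.02 (-0.27 to 0.22). JDP2, a repressor that pairs with JUN, and MAF lay at -0.22 and -0.17. These 5 did not pass the test, and the signs of JUN, FOSL1 and FOSL2 turned under at least 1 other scaling. JDP2 passed after quantile normalization (adjusted p 0.027), after removal of the span trend (0.0126) and without control clone 3 (0.0393), and MAF after removal of the span trend (0.048). JUNB, JUND, MAFF, MAFG and ATF2 passed under every scaling tried and with each clone left out, though not with the axis covariate given below.

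**Figure D3:**
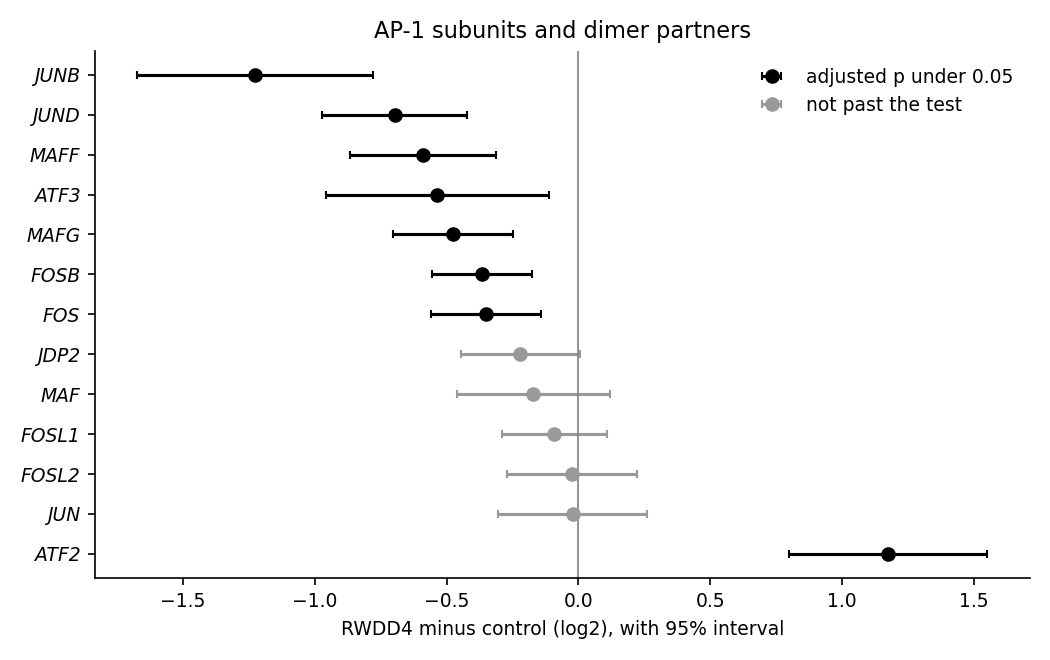
Difference between RWDD4 and control clones (log2, with its 95% interval) for the 13 measured AP-1 subunits and partners, black where the adjusted p was under 0.05 and grey otherwise. JUNB lies lowest at -1.23 and ATF2 highest at 1.17, and the intervals of JUN, FOSL1 and FOSL2 include 0.

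Of 27 other immediate early genes listed 19 were measured, IER3 and KLF4 among them; 7 fell and 4 rose (median -0.24). The share that fell was 36.8%, against 21.6% of all genes and 37.3% of the shortest decile of genomic span. The share that rose was 21.1%, against 25.1% of all genes and 3.86% of that decile. The list runs from the shortest decile to decile 9, where 8.73% fell and 51.1% rose. IER5, which responds to serum and heat, fell by 0.56, from 8.01 ± 0.18 to 7.45 ± 0.23 (SD, n = 4 each; adjusted p 0.00616 by limma). KLF6, a relative of KLF4, rose by 0.58 and the survival gene MCL1 by 0.56 (adjusted p 0.000635 and 0.00719). The other two that rose, named after their values were seen, were KLF10, by 0.53, and the kinase gene SGK1, by 0.46. The call of SGK1 was lost with the span trend removed (0.19) and without control clone 2 or 4 or RWDD4 clone 6 or 17 (0.37 to 0.44, adjusted p 0.0513 to 0.0703). EGR1, the zinc finger factor usually induced together with FOS, differed by -0.05 (95% interval -0.24 to 0.14), and CCN2, a matrix protein gene driven by SRF and YAP, by 0.15. With the span trend removed 2 of these genes fell and 3 rose.

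Of 29 feedback genes listed 14 were measured, IER3 among them; 5 fell and 0 rose (median -0.25). The 35.7% called was below the 46.7% of all genes called. As a share that fell it stood against 21.6% of all genes and 37.3% of the shortest decile of genomic span. The list runs from that decile to decile 7, where 16.2% fell. SOCS3, which shuts off cytokine receptors that signal through JAK kinases, fell by 0.87, from 8.91 ± 0.22 to 8.05 ± 0.27 (SD, n = 4 each; adjusted p 0.00108 by limma). The phosphatases DUSP8 and DUSP5, which switch off MAP kinases, differed by -0.50 and -0.49 (adjusted p 0.0068 and 0.00727); the groups overlapped for DUSP5. DUSP2, a nuclear phosphatase of the family named after its values were seen, fell by 0.46 (adjusted p 0.0117), but not with the span trend removed (-0.26), and its groups overlapped too. DUSP6, another ERK phosphatase, lay at -0.10 and DUSP10 at -0.07. After quantile normalization 7 of the group fell and 0 rose, and with the span trend removed 4 fell and 2 rose; these 2 were ERRFI1, which binds the EGF receptor, and TRIB1, a pseudokinase.

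Upstream of these genes, 36 kinases and factors were listed and 21 measured (median -0.06). Of the 21, 8 rose (38.1%, against 25.1% of all genes) and 7 fell (33.3%, against 21.6%). Those that rose lie in deciles 8 to 10 of genomic span, where 45%, 51.1% and 43.4% of protein-coding genes rose. Those that fell lie in deciles 2, 3 and 6, where 38.6%, 36.4% and 18.9% fell. With the span trend removed 8 of the list rose and 7 fell. MRTFB, a coactivator of SRF that responds to actin, rose by 1.44, MAP2K6, a kinase that activates p38, by 1.42, and CREB1 and CREM, which bind the CRE, were each 2.01-fold higher (adjusted p 5.68e-05, 0.00217, 7.3e-05 and 0.000218 by limma). SRF itself, named after its values were seen, fell by 0.40, from 10.42 ± 0.10 to 10.02 ± 0.05 (SD, n = 4 each; adjusted p 0.00358). MAP2K1, a kinase that activates ERK, lay at 0.01 and MAPK10 at -0.06. Levels of upstream genes thus differed in both directions between the groups.

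Among 13 measured genes known as AP-1 targets (of 23 listed), 4 fell and 1 rose (median -0.13). The 38.5% called was below the 46.7% of all genes called. The share that fell was 30.8%, against 21.6% of all genes. All 4 that fell lie in the shortest 2 deciles of genomic span, where 37.3% and 38.6% of protein-coding genes fell. With the span trend removed 4 of the list fell, CXCL8 (-1.27) and IL11 (-0.56) among them, and 1 rose. The neutrophil chemokine CXCL8 fell most, with a difference of -1.46, followed by the cytokine IL11 with -0.74 and the protease inhibitor TIMP1 with -0.62 (adjusted p 0.00256, 0.00213 and 0.00292 by limma). The fourth, named after its values were seen, was the cytokine LIF at -0.60 (adjusted p 0.00416). The adhesion receptor CD44 rose by 0.73 (adjusted p 0.00199). The collagenase MMP13 lay at 0.11 and FOSL1, itself an AP-1 target, at -0.09.

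All 17 KLF genes were measured; 4 rose and 3 fell (median -0.16). These shares, 23.5% and 17.6%, lay near those of all genes, 25.1% and 21.6%. KLF4 fell with KLF16, a repressor, at -0.68, while KLF12 rose by 0.72, KLF6 by 0.58 and KLF10, an early target of TGF-beta, by 0.53 (adjusted p 0.000522, 0.00428, 0.000635 and 0.0135 by limma). The other two called, named after their values were seen, were KLF11, which rose by 0.47, and the erythroid KLF1 at -0.25. The call of KLF1 was lost with control clone 3 or 4 or any 1 RWDD4 clone left out (adjusted p 0.054 to 0.0899), and after cyclic loess (0.136), median centring (0.0932) and removal of the span trend (0.66). KLF9 and KLF13 lay at -0.12 and -0.16; KLF13 passed after quantile normalization (adjusted p 0.0371) and with the span trend removed (0.00385). After quantile normalization 5 fell and KLF4 lay at -0.57, which is over 1.5 times its value above.

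The genes nearest to each of the 4 in profile were found by centring every gene on its own mean and taking the root mean square (RMS) difference over the 8 arrays, on the log2 scale. For JUNB these were DDIT4, an inhibitor of mTOR signalling (RMS 0.165), TRADD, an adaptor of the TNF receptor (0.19), and TNIP1, which restrains NF-kappa-B (0.193). For IER3 they were the deacetylase SIRT2 (0.0601), NCKIPSD (0.0618) and the D-type cyclin CCND3 (0.0738). For FOS they were the triglyceride synthesis gene DGAT1, the FGF receptor relative FGFRL1 and the actin regulator VASP (0.0378, 0.0394 and 0.0479), and for KLF4 the guanine nucleotide synthesis gene IMPDH1, MYBBP1A and NTN3 (0.0358, 0.0376 and 0.0391). None of these 12 genes is on the lists above, and their profiles include the group difference, a difference that many genes share.

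The 4 genes are short. Their genomic spans in RefSeq are 1349 bases for IER3, 1830 for JUNB, 3403 for FOS and 4918 for KLF4. IER3, JUNB and FOS fall in the shortest decile of protein-coding genes, in which 37.3% of 1192 genes fell and 3.86% rose, and KLF4 in the second, in which 38.6% fell and 9.65% rose. With each array's trend over span removed, JUNB remained at -1.03 (SE 0.19; adjusted p 0.00138 by limma) and IER3 at -0.45 (SE 0.10; 0.00483). FOS, at -0.15 (SE 0.09; 0.199), and KLF4, at -0.19 (SE 0.09; 0.0958), no longer passed. The median difference was -0.23 in the shortest decile, against -0.35 for FOS, -0.64 for IER3 and -1.23 for JUNB, and -0.21 in the second, against -0.38 for KLF4.

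**Figure D4:**
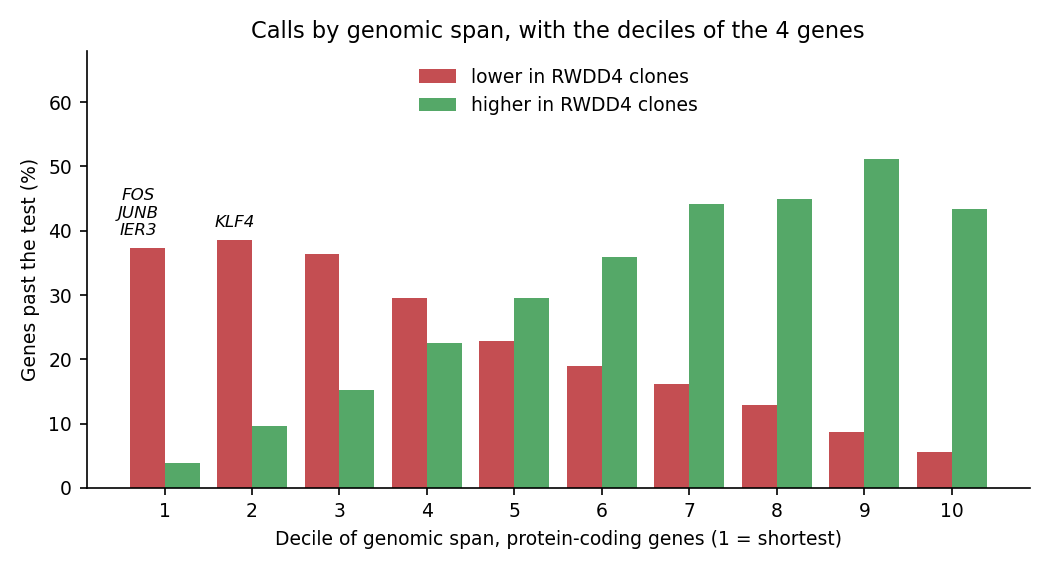
Percent of protein-coding genes past the test that were lower (red) or higher (green) in RWDD4 clones, by decile of genomic span. The names mark the deciles of the 4 genes, the shortest 2, where 37.3% and 38.6% of genes were lower.

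When the fit also held, for every array, its score on the first component of the spread inside groups, none of the 4 genes passed by limma, and 0 had an unadjusted p under 0.05. Differences were -0.68 (SE 0.41) for JUNB, -0.38 (SE 0.23) for IER3, -0.32 (SE 0.19) for KLF4 and -0.25 (SE 0.20) for FOS, with adjusted p from 0.495 to 0.65. The groups do not overlap on this axis, where RWDD4 clones scored 0.60 to 1.09 and controls -1.77 to -0.37, so the axis and the vector cannot be told apart here. With any 1 clone left out all 4 genes still fell.

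**Figure D5:**
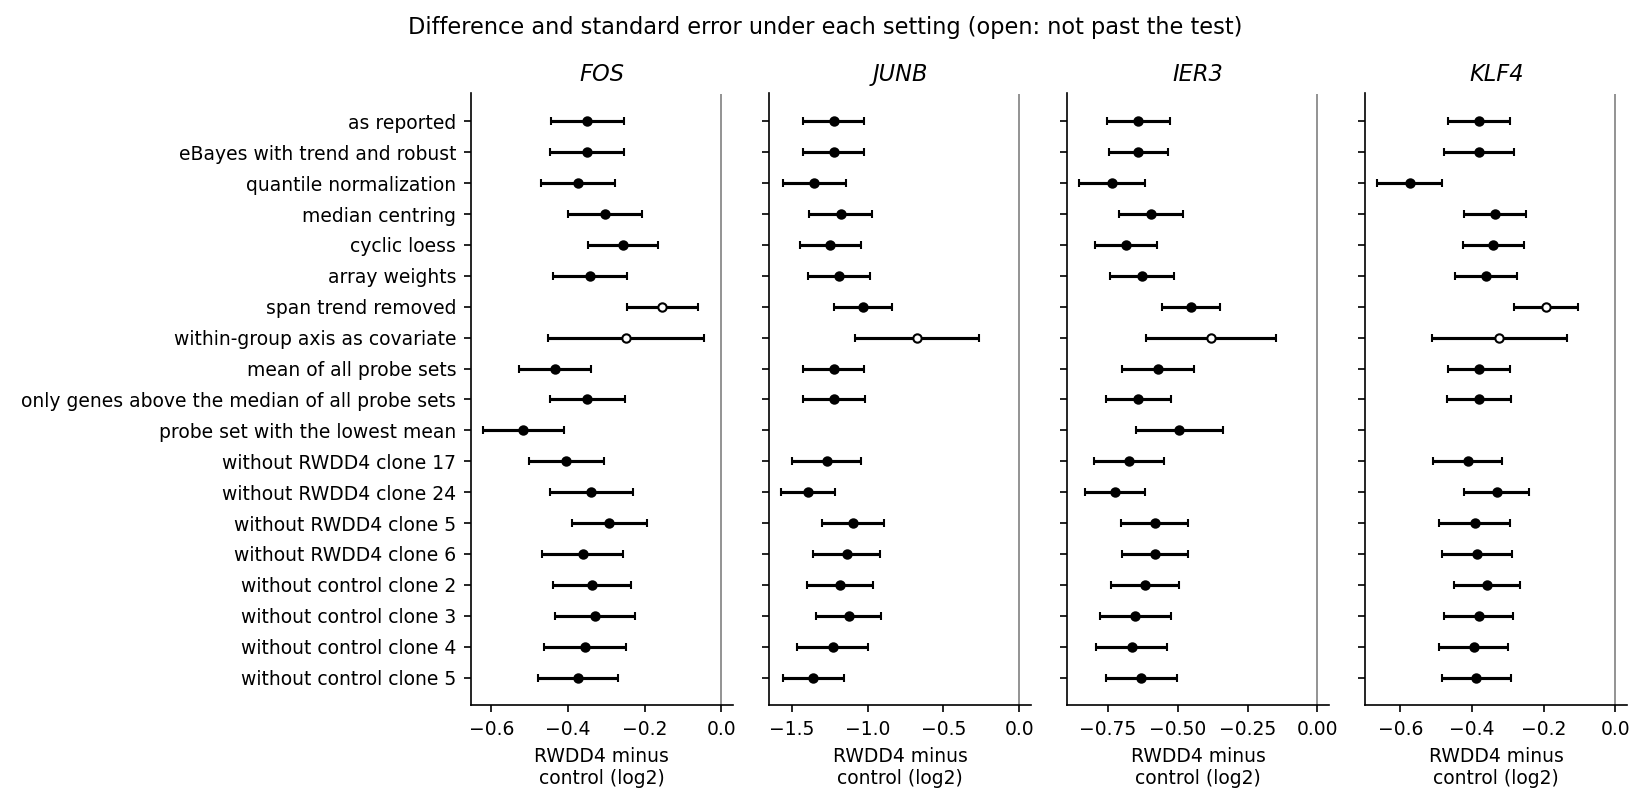
Difference between RWDD4 and control clones (log2, with its SE) of FOS, JUNB, IER3 and KLF4 under each setting; filled points had an adjusted p under 0.05 and open points did not. Every point lies below 0, and the open points are FOS and KLF4 with the span trend removed and all 4 genes with the within-group axis as covariate.

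Markers of the line and of other cells were read on the same arrays. The epithelial keratins KRT18 and KRT19 both fell, with differences of -0.40 (11.02 to 10.61) and -0.54 (10.78 to 10.24). RMA sets no level across genes, so whether a marker is present was not tested. KRT8 lay at -0.28 (adjusted p 0.0289) and EPCAM at 0.13, while VIM and CD44 rose by 0.73 each. The luminal genes KLK3 and KLK2, low in this line, lay at -0.05 and -0.08 and did not pass. Of 8 measured heat and handling stress genes (15 listed) 3 rose and 1 fell: HSPH1 lay at 2.15, HSPD1 at 1.42, BAG3 at 0.31 and ATF3 at -0.54, and HSPA1A and HSPA1B, which did not pass, at -0.07 and -0.06. The mean level of these 8 genes was 9.26 to 9.47 in RWDD4 clones and 8.74 to 9.19 in controls, and its part in the values of the 4 genes was not tested.

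Of 3 measured blood cell markers (8 listed) CD14 (4.51 to 4.09) and CD68 (10.60 to 10.21) passed at -0.42 and -0.39, and LYZ (4.08 to 3.89) lay at -0.19; their mean level was 5.98 to 6.13 in RWDD4 clones and 6.26 to 6.52 in controls. Of 4 stromal and endothelial markers (8 listed) THY1 (6.43 to 6.07) and VWF (4.84 to 4.53) passed at -0.36 and -0.31, and PECAM1 (5.57 to 5.44) and DCN (2.81 to 2.70) lay at -0.13 and -0.11, with mean levels of 4.66 to 4.74 against 4.81 to 5.02. Their part in the result was not tested. The calls of BAG3, KRT8, CD68, THY1 and VWF were lost with single clones left out (adjusted p 0.0507 to 0.129): BAG3 without control clone 2 or 3 or RWDD4 clone 5, 17 or 24, KRT8 without control clone 2 or 4 or RWDD4 clone 6 or 24, CD68 without any but control clone 5 or RWDD4 clone 24, THY1 without any but control clone 3 or 5, and VWF without any but control clone 2. Among genes named above with values near 0, the sign of EGR1, DUSP6, DUSP10, MAP2K1, MAPK10, MMP13, KLK2, KLK3, HSPA1A, HSPA1B and EPCAM turned under at least 1 setting. With the axis covariate the sign also turned for named genes that had passed, KLF12 (-0.11), KLF10 (-0.13), KRT19 (0.05), MCL1 (-0.0075) and CD44 (-0.0019), and for CCN2 (-0.21), MAF (0.27), ERRFI1 (-0.51) and TRIB1 (-0.44), which had not.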

How the data were processed

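RNA of 8 PC-3 clones, 4 with the RWDD4 vector and 4 with the empty vector, was measured on 8 Affymetrix arrays. The values are log2 levels deposited by the authors for 53617 probe sets; Partek and RMA are the tools in the submitters' processing notes. RMA corrects background, normalizes arrays to each other and summarises probes. The sources used here give neither versions nor a genome build. RMA values compare 1 gene between arrays, not genes with each other, and can compress changes. Precision is limited by the number of arrays.

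The annotation gave 16098 probe sets 1 gene symbol, none several, and did not list 37519. They stood for 14884 genes, all matched by gene ID to RefSeq (GRCh38.p14) for symbols and span; promoter sequences, found for 3 of the 4 genes, are from RefSeq too. The probe set with the highest mean stood for a gene, and no dim probe sets were removed. RWDD4 minus control was fitted over all genes in limma 3.58.1 (lmFit, then eBayes, in R 4.3.3), two-sided, without covariates, with Benjamini-Hochberg adjustment. Only this fit was tested on simulated data, which held independent noise. Alternatives covered the variance model, probe set, filter, scalings, array weights, span trend (lowess, span 0.3), within-group axis and each clone; the probe set with the lowest mean was added after the data were seen.

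The members and lists were chosen with earlier results of these data known. Named were the 4 genes, all measured AP-1 genes and, per other list, up to 4 called genes with the largest difference and up to 2 genes with the smallest; for each of the 4 genes also the 3 protein-coding genes nearest in profile. Listed genes without a probe set in the annotation were not analysed here.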

Additional observations from a re-analysis of the deposited data

How the results depend on the processing

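The differences of FOS, JUNB, IER3 and KLF4 were negative under all 17 or 18 alternatives run for each, and passed the test under 16, 16, 17 and 15 of them. These alternatives are not independent. The variance model and the filter cannot change a difference, nor can the mean of all probe sets for JUNB and KLF4. The fits with 1 clone left out share most of their clones. With the span trend removed FOS (-0.15) and KLF4 (-0.19) did not pass, so that 2 of the 4 genes were called, against 6946 of all genes. With the within-group axis as covariate FOS (-0.25), JUNB (-0.68), IER3 (-0.38) and KLF4 (-0.32) did not pass: 0 of the 4 genes were called by limma, 0 of 91 listed pathway genes (17 at an unadjusted p under 0.05) and 1 of all genes (1910 unadjusted). The cause of these losses was not tested. With 1 clone left out, FOS ranged from -0.40 to -0.29, JUNB from -1.39 to -1.10, IER3 from -0.73 to -0.58 and KLF4 from -0.41 to -0.33. Calls among all genes then ranged from 5630 to 6768 and among the pathway genes from 41 to 50, against 6955 and 47 with all clones. The split of calls over all genes moved with scaling, from 3741 higher and 3214 lower to 3980 and 2200 after cyclic loess and 3429 and 3694 after quantile normalization. The clone numbers name clones and pair no samples, and the number that both groups share names a different clone in each. No paired analysis was therefore possible. Signal over background was not analysed here.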
